A study of Mus musculus with 8 samples.

Results

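Microglia of 18-month-old mice were compared 14 days after stroke with microglia of sham-operated mice of the same age. The comparison took the 4 aged libraries of a series of 8, 2 per group, and ran over the 11955 genes that passed a filter on low counts, of 17261 genes in the count table. All animals were male wild-type C57BL/6 mice, and the labels name no transgene, Cre line or drug. The stroke group had undergone distal middle cerebral artery occlusion (dMCAO), in which a cortical branch of that artery is closed, while the sham group had the operation alone. The other 4 libraries came from 10-week-old mice, 2 sham and 2 dMCAO, and served to estimate the spread and as the reference for age. Cells had been dissociated from brain and sorted by flow cytometry as CD45 intermediate, CD11b positive cells, a gate that keeps microglia but does not by itself shut out every other myeloid cell. Nothing in the labels says that the 2 libraries of a group came from separate animals, so the p-values below measure only the spread between these libraries. In bulk RNA of this kind, fewer cells of a type and less RNA per cell cannot be told apart.

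Microglia are the resident macrophages of the brain. In health they carry a set of homeostatic genes such as P2ry12 and Tmem119, and around dying tissue or plaques they can take on a disease-associated state with Spp1, Lpl, Cst7 and Apoe, in which they clear lipid-rich debris. After stroke they also release chemokines, which attract other leukocytes, and factors that act on blood vessels, and the series is about those functions in aged microglia.

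The aged libraries were uneven, and each is therefore given by itself. Sham 1 held 1484870 counts and sham 2 5124213, while dMCAO 1 held 747637 and dMCAO 2 1297568. Of the tested genes, 1843 and 278 had no count in the sham libraries and 3075 and 2530 had none in the dMCAO libraries. The ribosomal RNA precursor Rn45s took 34.3% of the counts of dMCAO 2, against 4.04% in sham 2 and 12.7% and 13.4% in the other two. Replicates correlated less in the aged groups (Pearson r of log2(CPM + 1) across genes 0.764 in sham and 0.717 in dMCAO) than in the young groups (0.967 and 0.969). Libraries are numbered as in the count table. In the separate table of FPKM, the column named aged dMCAO 1 matched the counts of dMCAO 2 (r = 0.821 across 17026 genes, each centred on its mean) and the column named aged dMCAO 2 matched the counts of dMCAO 1 (r = 0.754), so the 2 names are crossed within the group in one of the tables. The FPKM column named young sham 2 likewise matched the counts of young sham 1 (r = 0.577) better than its own (0.291), and the column named young sham 1 matched no library well (r of at most 0.211, with young sham 2). Names crossed within a group leave the comparison of the groups as it is. Levels below are CPM, the counts of a gene per 1e+06 counts, scaled to the library by trimmed mean of M-values (TMM) factors, log2 fold changes (in parentheses after the levels of a gene) are dMCAO over sham ± their standard error, and adjusted p-values are from edgeR's quasi-likelihood test unless another tool is named.

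The labelled cell type was borne out by its markers. All 18 homeostatic genes were detected in each of the 4 aged libraries, and their summed level was 23802 and 9007 CPM in sham and 26367 and 18848 CPM in dMCAO. Csf1r, the receptor for the survival factor of microglia, stood at 3822 and 2069 CPM in sham and 1722 and 2308 CPM in dMCAO. Sham 2 had the lowest homeostatic sum of the 4, and the highest summed level of monocyte markers, as described further below.

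One gene rose and 3 fell after stroke at an adjusted p under 0.05. Spp1 rose, and Ralgapa1, Btaf1 and Sgms1 fell. These are 0.00836% of the tested genes in the first direction and 0.0251% in the second.

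Spp1 encodes osteopontin, a secreted phosphoprotein that binds integrins and CD44. Its level was 27.2 and 13.8 CPM in the sham libraries and 441 and 552 CPM in the dMCAO libraries. Both dMCAO libraries lay far above both sham libraries, and the log2 fold change was 4.65 ± 0.52 (adjusted p = 0.0401). In young mice Spp1 was at 1.9 and 4.95 CPM in sham and 219 and 225 CPM in dMCAO, a log2 fold change of 6.03 ± 0.56. The young and aged changes differed by −1.38 ± 0.66 with an adjusted p of 0.509 for the difference, so the data do not separate them. The gene lies on the + strand of chromosome 5 from 104435118 to 104441050 (mm10, GENCODE M21), in a protein-coding gene with 1.65 kb of exon. As it is the only gene called higher, the 250 bases before its RefSeq start (GRCm38.p6, chr5:104434861-104435110, + strand) are shown, with the motif GAGGAAGT in capitals, a core bound by the myeloid factor PU.1:

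Spp1: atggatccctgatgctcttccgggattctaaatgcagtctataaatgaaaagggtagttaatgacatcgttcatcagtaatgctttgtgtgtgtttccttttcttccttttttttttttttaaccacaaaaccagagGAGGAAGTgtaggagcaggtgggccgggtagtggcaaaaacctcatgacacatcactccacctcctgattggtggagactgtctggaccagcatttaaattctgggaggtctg

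The motif stands 113 bases before the start on the sense strand, and no other match lay in the window on either strand. Of 32851 promoter windows of the same length, 2.44% hold it on either strand. A match of letters describes the sequence and is not evidence of binding.

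Ralgapa1 encodes the catalytic subunit of the complex that switches off the small GTPases RalA and RalB. Its level was 113 and 123 CPM in sham and 10 and 5.47 CPM in dMCAO, a log2 fold change of −3.96 ± 0.44 (adjusted p = 0.0401). Btaf1, an ATPase that takes the TATA-binding protein off DNA, stood at 116 and 128 CPM in sham and 12.9 and 6.56 CPM in dMCAO (−3.68 ± 0.42, adjusted p = 0.0401). Sgms1, the Golgi enzyme that makes sphingomyelin from ceramide, had 86.6 and 86.3 CPM in sham and 2.86 and 1.09 CPM in dMCAO. It rested on 628 counts over the sham libraries and 3 over the dMCAO libraries, 46.4-fold (95% interval 15.8 to 226) lower with an adjusted p of 0.0463. For each of the 3 the sham libraries lay close together and the dMCAO libraries far below them. In young mice no such drop was seen: the log2 fold changes were 0.18 ± 0.35 for Ralgapa1, 0.13 ± 0.33 for Btaf1 and −0.11 ± 0.45 for Sgms1, although the difference between the ages did not pass the test (adjusted p = 0.154 for each). All 3 are long genes. Ralgapa1 lies on chromosome 12 (55602896 to 55821167, − strand) with 12.3 kb of exon, Btaf1 on chromosome 19 (36926079 to 37012752, + strand) with 10.3 kb, and Sgms1 on chromosome 19 (32122727 to 32389714, − strand) with 10.6 kb, against a median of 4.53 kb over 11512 tested genes with a length.

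How many genes passed depended strongly on the libraries and the tool. Without sham 2, or without either young dMCAO library, no gene was called. Without either young sham library, Spp1 alone was called. Without sham 1, 38 genes were called higher and 40 lower. Without dMCAO 1 these were 73 and 329, and without dMCAO 2 they were 76 and 346. A fit to the 4 aged libraries alone called none, with 555 genes at an unadjusted p under 0.05. DESeq2 on all 8 libraries called 356 genes higher (2.98%) and 694 lower (5.81%), and all 4 edgeR calls were among them. Spp1 was called in 15 of 24 alternative settings, Ralgapa1 and Btaf1 in 11 each and Sgms1 in 7, and none of the 4 changed direction in any of them.

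**Figure D1:**
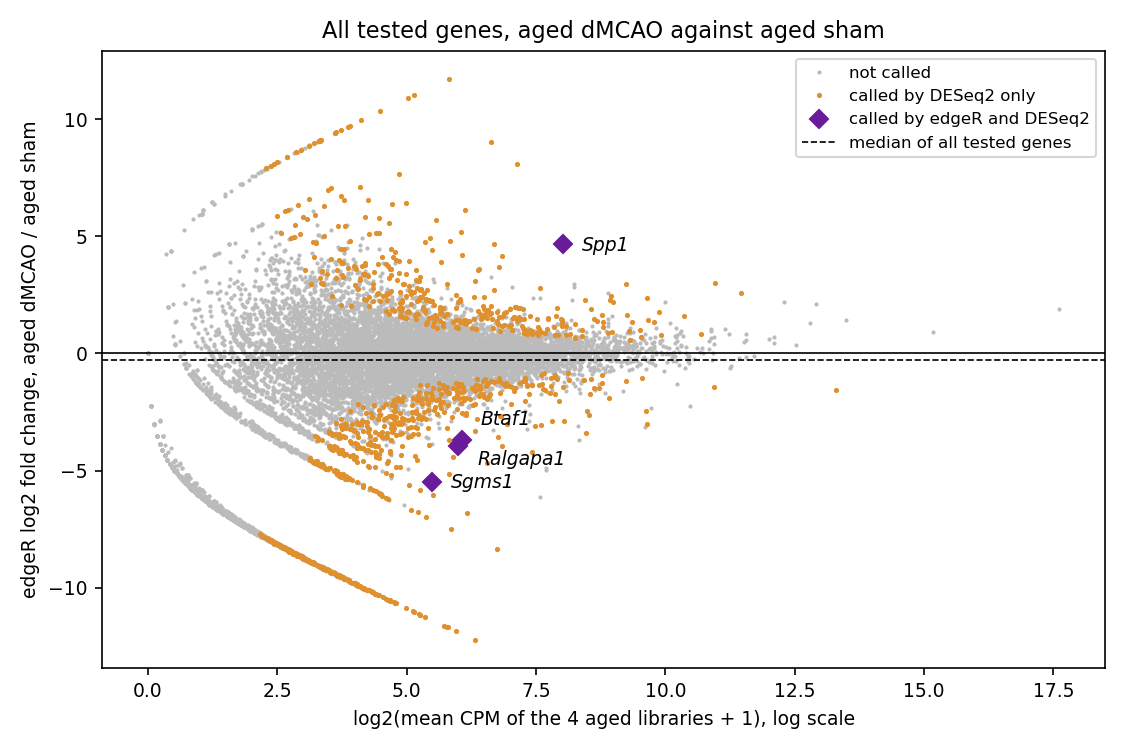
Each of the 11955 tested genes by its mean level in the 4 aged libraries (x axis, log2 of CPM + 1) and its edgeR log2 fold change, aged dMCAO over aged sham (y axis). Diamonds mark the 4 genes called by edgeR and by DESeq2, orange points the genes called by DESeq2 only, and the dashed line the median of all tested genes, −0.29. The outermost curved bands are genes with no count in either library of one group, whose fitted values depend on the prior count.

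In the main fit the whole distribution leaned downwards. Without a test, 40.0% of the tested genes had a log2 fold change above 0, and the median was −0.29, against 0.00 in young mice. The groups were apart, with dMCAO the higher, for 11.6% of the genes and with dMCAO the lower for 23.8%. Of the genes in the second set, 723 had no count at all in either dMCAO library, the 2 libraries with the fewest counts, and of the first set 31 had none in either sham library. At an unadjusted p under 0.05 there were 594 genes higher and 1593 lower. Each gene list below is read against these shares. The median of all genes moved with the scaling, the depth and the libraries. It was −0.20 with DESeq2-type factors in edgeR and −0.92 in the FPKM table with a pseudocount of 1. With counts thinned to the smallest library it was −0.105, and with the 4 aged libraries alone −0.079. It was 0 without sham 2, −0.31 without sham 1, −0.54 without dMCAO 1 and −0.71 without dMCAO 2. The side of a list is therefore given relative to that median over the 24 alternative settings.

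The next genes by p-value, at a mean of at least 10 CPM and with no overlap between the groups, did not pass the adjusted threshold. On the higher side they include 2 further genes of the disease-associated state. Lpl, which encodes lipoprotein lipase, stood at 43.7 and 50.4 CPM in sham and 336 and 325 CPM in dMCAO (2.81 ± 0.43, adjusted p = 0.0995). Cst7, which encodes cystatin F, an inhibitor of lysosomal cathepsins, stood at 17.9 and 8.34 CPM in sham and 163 and 142 CPM in dMCAO (3.59 ± 0.58, adjusted p = 0.0995). For Lpl the sham pair and the dMCAO pair each lay close together, and for Cst7 only the dMCAO pair did. Igfbp5, a secreted binder of insulin-like growth factors, was at 1.43 and 2.21 CPM in sham and 65.8 and 205 CPM in dMCAO (6.11 ± 0.84). Apod, the lipid carrier apolipoprotein D, was at 5.01 and 2.38 CPM in sham and 65.8 and 188 CPM in dMCAO (5.19 ± 0.91), so that dMCAO 2 was the higher of the pair for both. Lgals3bp, the galectin-3-binding protein, was at 169.7 and 147 CPM in sham and 422 and 761 CPM in dMCAO (1.9 ± 0.35).

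Of the remaining 6 genes on the higher side, Gde1, a glycerophosphodiesterase, was at 17.2 and 16.2 CPM in sham and 93 and 190.3 CPM in dMCAO. Tmem106c, a membrane protein, was at 3.58 and 2.38 CPM in sham and 50.1 and 104 CPM in dMCAO. Abhd6, a lipid hydrolase that degrades an endocannabinoid, was at 4.3 and 2.72 CPM in sham and 55.8 and 48.1 CPM in dMCAO. For all 3 the sham libraries were low and close together. Fbxl16, an F-box protein, was at 2.86 and 1.02 CPM in sham and 136 and 47 CPM in dMCAO. Usp35, a deubiquitinase, was at 72.3 and 47.5 CPM in sham and 210.3 and 247 CPM in dMCAO. Pcp4, a small calmodulin regulator, had no count in sham and 84.4 and 42.7 CPM in dMCAO, at least 147-fold higher when sham is set at 3 counts over the group. In young mice Igfbp5 was at 3.79 and 1.98 CPM in sham and 14 and 18.3 CPM in dMCAO, so it was higher after stroke at that age too, at lower levels. Apod was at 2.53 and 4.95 CPM in sham and 4.82 and 11.4 CPM in dMCAO there, with overlap.

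On the lower side, Vps13b came next after the called genes. It encodes a bridge-like protein that moves lipids between membranes, and stood at 163 and 268 CPM in sham and 24.3 and 29.5 CPM in dMCAO (−3.0 ± 0.37, adjusted p = 0.0528). Alox5ap, the protein that presents arachidonic acid to 5-lipoxygenase in leukotriene synthesis, was at 327 and 460.1 CPM in sham and 83 and 107 CPM in dMCAO (−2.05 ± 0.32, adjusted p = 0.0995). Fam208a, a subunit of a complex that silences retroelements, was at 72.3 and 121 CPM in sham and 14.3 and 7.66 CPM in dMCAO (−3.17 ± 0.49). These 3 kept a measurable level after stroke, below both sham libraries.

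The others were near the detection limit in dMCAO. Tia1, an RNA-binding protein of stress granules, and Cad, the enzyme of the first steps of pyrimidine synthesis, had no count in either dMCAO library. Tia1 was at 57.3 and 40.7 CPM in sham, at least 23.6-fold lower in dMCAO when that group is set at 3 counts. Cad was at 45.8 and 27.7 CPM in sham, at least 16.8-fold lower in dMCAO. Pot1b, a telomere-binding protein, had 1134 counts over the sham libraries and 1 over the dMCAO libraries, 252-fold (95% interval 45.1 to 9946) lower. Abca13, a large membrane transporter, had 480 counts over the sham libraries and 1 over the dMCAO libraries, 106-fold (95% interval 19 to 4215) lower. Zcchc24, a zinc-finger protein, had 416 counts over the sham libraries and 3 over the dMCAO libraries, 30.8-fold (95% interval 10.5 to 149.8) lower. These intervals, and the floors of 3 counts, cover counting error only. The 12 genes on the lower side had a median exon length of 10.4 kb and the 12 on the higher side one of 2.51 kb.

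**Figure D2:**
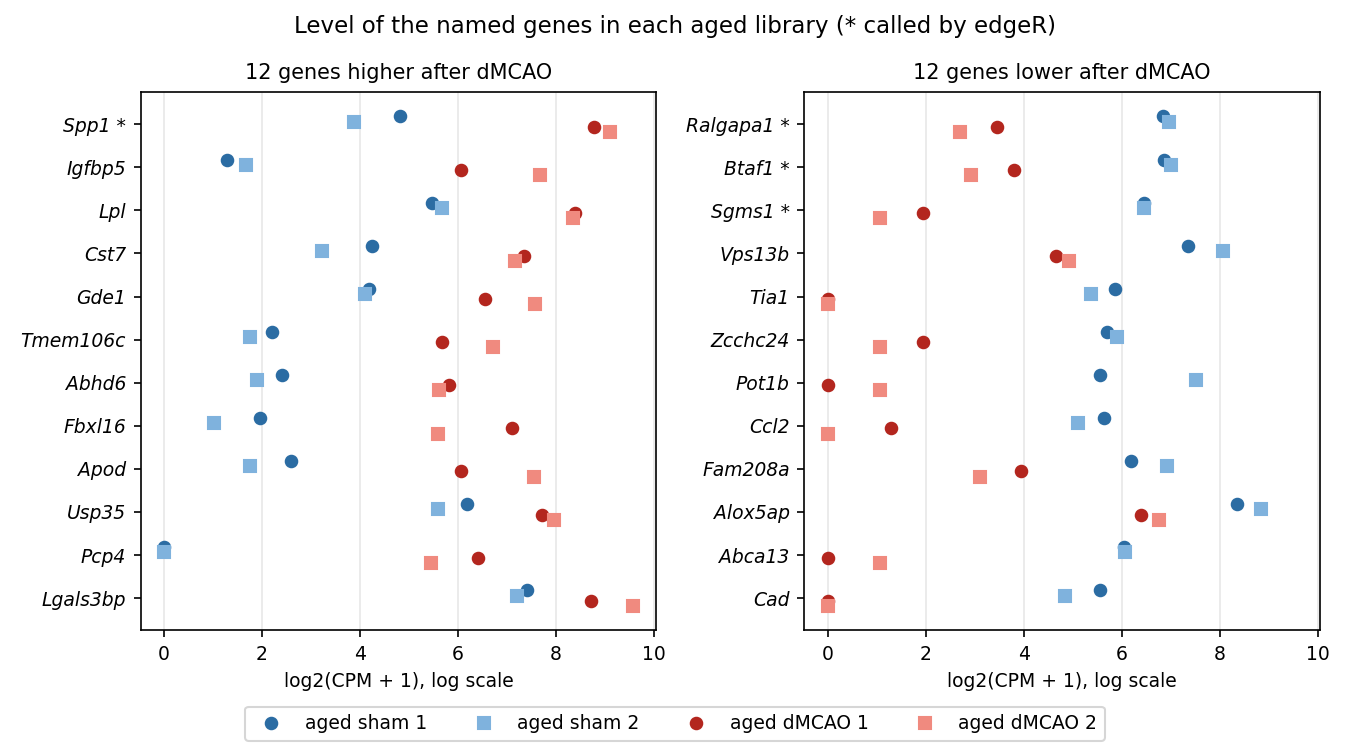
Level in each aged library (x axis, log2 of CPM + 1) of the 12 genes with the smallest p-values on each side that did not overlap between the groups. Blue symbols are the sham libraries, red symbols the dMCAO libraries, circles replicate 1 and squares replicate 2. The blue and red symbols do not overlap in any row, which the choice of genes required, and a star marks Spp1, Ralgapa1, Btaf1 and Sgms1, the 4 genes called by edgeR.

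Genes of the disease-associated state were mostly higher after stroke. Of the 27 tested members, 22 had a log2 fold change above 0 and 14 were higher without overlap, against 11.6% of all genes, while none was lower without overlap. Only Spp1 passed the adjusted threshold with edgeR, and 6 members did with DESeq2. The median log2 fold change was 0.94, and it lay above that of all genes in 24 of 24 alternative settings, although it was below 0 in the FPKM settings (lowest −0.09). With an aged library left out it ran from 0.51 without dMCAO 2 to 1.57 without sham 1.

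Gpnmb, a membrane glycoprotein of lysosomes, was at 8.59 and 3.06 CPM in sham and 41.5 and 88.6 CPM in dMCAO (3.55 ± 0.90, adjusted p = 0.141). Fabp5, a fatty acid carrier, was at 30.1 and 15.1 CPM in sham and 87.3 and 118 CPM in dMCAO (2.2 ± 0.75), though the FPKM table put it lower, at −0.67. Apoe, the main lipid carrier of the brain, was at 9983 and 2456 CPM in sham and 15860.3 and 17856 CPM in dMCAO (1.44 ± 0.60, adjusted p = 0.254). Both dMCAO libraries were above sham 1, which itself held about as much Apoe as both young dMCAO libraries (8394 and 9411 CPM), while the young sham libraries held 911 and 1613 CPM. Igf1, a growth factor for neurons and vessels, was at 10 and 8.0 CPM in sham and 52.9 and 28.4 CPM in dMCAO (2.18 ± 0.98).

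Other members overlapped between the groups. Axl, a receptor for apoptotic cells, was at 199 and 112 CPM in sham and 196 and 573 CPM in dMCAO. Clec7a, the pattern receptor dectin-1, was at 70.2 and 163 CPM in sham and 153 and 257 CPM in dMCAO, and the integrin subunit Itgax at 34.4 and 54.5 CPM in sham and 20 and 113 CPM in dMCAO. Trem2, the lipid-sensing receptor that the full state requires, was at 640.0 and 165 CPM in sham and 418 and 560.0 CPM in dMCAO. Lgals3, galectin-3, was highest in sham 2 (37.9 and 193 CPM in sham, 25.7 and 85.3 CPM in dMCAO), and its log2 fold change of −1.06 ± 0.93 became 0.60 without that library. Young mice had 27 of 27 members above 0, with a median of 1.43.

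No homeostatic gene passed the test in the aged comparison. Of 18 members, 12 were above 0, 1 was higher without overlap and none lower, and the median was 0.09. That median stayed above the median of all genes in 22 of 24 alternative settings, and it was 0.67 without sham 1 and −0.22 without sham 2. P2ry12, the purine receptor that guides microglial processes, was at 601 and 445 CPM in sham and 625 and 362 CPM in dMCAO. Tmem119, a membrane protein used to tell microglia from other macrophages, was at 694 and 282 CPM in sham and 452 and 491 CPM in dMCAO. Sall1, a transcription factor of microglial identity, was at 1029 and 428 CPM in sham and 983 and 981 CPM in dMCAO. Cx3cr1, the fractalkine receptor, ranged widely, from 7091 and 1046 CPM in sham to 13828 and 6374 CPM in dMCAO. In each of these 4 genes the groups overlapped. In young mice 2 of the 18 were above 0, with a median of −0.33, and no member passed the test of the difference between the ages.

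**Figure D3:**
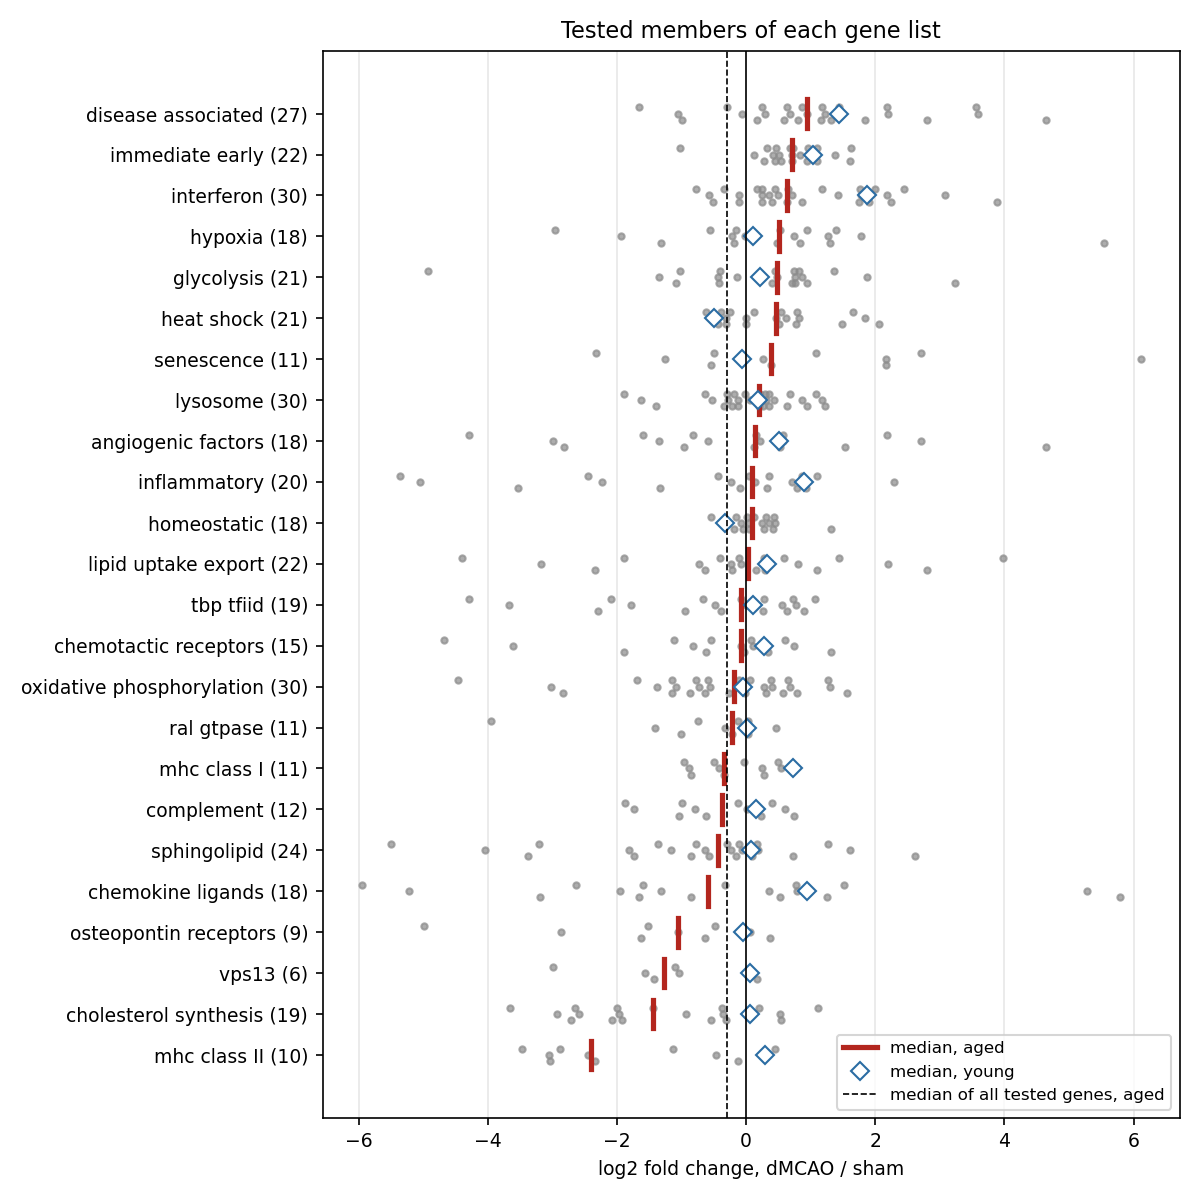
Log2 fold change, dMCAO over sham, of each tested member of 24 gene lists in aged mice (grey points; genes with no count in one group stand at their bound against 3 counts over the group), with the list median in aged mice (red bar) and in young mice (blue diamond). The number of tested members is in parentheses and the dashed line is the median of all tested genes in aged mice, −0.29. The red bars run from 0.94 for the disease-associated state to −2.4 for MHC class II.

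The receptors of osteopontin did not follow their ligand. Of 9 tested integrin subunits and CD44, 2 were above 0, 3 were lower without overlap and neither edgeR nor DESeq2 called any. The median was −1.06, below that of all genes in 24 of 24 alternative settings, and −0.55 without sham 2 and −1.97 without dMCAO 2. Itgav, the alpha subunit of the main osteopontin receptors, was at 99.5 and 159.7 CPM in sham and 70.1 and 21.9 CPM in dMCAO (−1.52 ± 0.51, adjusted p = 0.193), and its partner Itgb3 overlapped, at 168 and 48.5 CPM in sham and 27.2 and 108 CPM in dMCAO. Itga5 was at 44.4 and 81.7 CPM in sham and 15.7 and 25.2 CPM in dMCAO (−1.62 ± 0.53). Cd44 (37.2 and 542 CPM in sham, 1.43 and 76.6 CPM in dMCAO) and Itga4 (8.59 and 795 CPM in sham and 0 and 24.1 CPM in dMCAO) were far higher in sham 2 than in any other aged library. Without sham 2 their log2 fold changes turned from −2.87 ± 1.37 to 0.14 and from −4.98 ± 1.79 to 0.58.

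Chemokines included ligands that were higher after stroke and ligands that were hardly detected. Of 18 tested chemokine ligands, 8 were above 0, against 40.0% of all genes. Without overlap 3 were higher and 5 lower, against 11.6% and 23.8% of all genes. These counts were near the shares of all genes, and edgeR called none of the 18. DESeq2 called 2 higher and 3 lower. The median was −0.59, but 0.10 without sham 2 and 0.02 without dMCAO 1, so the list as a whole had no stable side. In young mice 14 of the 18 were above 0, with a median of 0.94.

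Ccl2, the ligand that draws CCR2-bearing monocytes, was at 48.7 and 33.7 CPM in sham and 1.43 and 0 CPM in dMCAO. It rested on 266 counts over the sham libraries and 1 over the dMCAO libraries, 59-fold (95% interval 10.5 to 2339.7) lower with an adjusted p of 0.0995. In young mice Ccl2 was at 77.9 and 52.3 CPM in sham and 92.2 and 96 CPM in dMCAO, and the difference between the ages had an adjusted p of 0.247. Ccl7, another ligand of CCR2, had no count in dMCAO and 40.1 and 4.77 CPM in sham, at least 6.21-fold lower than in sham. Ccl12, which also binds CCR2, overlapped at 70.2 and 16.7 CPM in sham and 68.7 and 77.7 CPM in dMCAO.

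Ccl4, a chemokine for macrophages and T cells, was at 233 and 54.3 CPM in sham and 346 and 334 CPM in dMCAO (1.26 ± 0.57, adjusted p = 0.28), while the related Ccl3 overlapped at 473 and 124 CPM in sham and 592 and 422 CPM in dMCAO. Cxcl16, a membrane-bound ligand of CXCR6, was at 129 and 91.9 CPM in sham and 216 and 415 CPM in dMCAO (1.52 ± 0.42, adjusted p = 0.148), with both dMCAO libraries above both sham libraries. Cxcl12, a ligand of CXCR4 made by stromal cells, was at 1.43 and 0.34 CPM in sham and 18.6 and 64.5 CPM in dMCAO (5.78 ± 1.6, adjusted p = 0.149). It thus stood near 0 in sham, as it did in young mice, where it was at 1.26 and 2.77 CPM in sham and 0 and 0.559 CPM in dMCAO.

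Among the receptors for attractants, 6 of 15 were above 0 and edgeR called none, while DESeq2 called Ccr2 lower (adjusted p = 0.0113, and 1.53e-07 to 0.712 over the alternatives). The median was −0.08, −0.45 without sham 2, −0.98 without dMCAO 1 and −0.33 without dMCAO 2. Ccr2, the receptor of classical monocytes, was at 24.3 and 332 CPM in sham and 0 and 13.1 CPM in dMCAO, and Cxcr4 at 9.31 and 144 CPM in sham and 0 and 12 CPM in dMCAO, so the high values came from sham 2.

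Secreted factors that act on vessels had no common direction. Of 18 tested, 10 were above 0, 2 were higher and 4 lower without overlap, and Spp1 was the only one called by edgeR, while DESeq2 called Spp1 higher and Mmp9 lower. The median was 0.14, 0.00 without sham 2, −0.67 without dMCAO 2 and 0.36 without dMCAO 1. Vegfa, the main growth factor of vessels, was at 21.5 and 55.7 CPM in sham and 20 and 91.9 CPM in dMCAO, so dMCAO 2 was the highest library and dMCAO 1 the lowest. Pdgfb, which recruits pericytes, was at 183 and 71.8 CPM in sham and 205 and 172 CPM in dMCAO. Mmp9, a matrix protease, had no count in dMCAO and 9.31 and 43.1 CPM in sham, at least 19.7-fold lower than in sham. Anxa2, an annexin that assembles plasminogen and its activator on the cell surface, was at 46.5 and 124 CPM in sham and 0 and 20.8 CPM in dMCAO (−2.99 ± 1.29, adjusted p = 0.265).

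Genes of the response to low oxygen and of glycolysis leaned upwards. For hypoxia 10 of 18 tested members were above 0, 5 were higher without overlap and 2 lower, with a median of 0.51 that lay above that of all genes in 23 of 24 alternative settings and became −0.11 without dMCAO 1, 0.16 without dMCAO 2 and −0.98 at its lowest in the FPKM settings. Hif1a, the oxygen-regulated transcription factor, was at 143 and 153 CPM in sham and 338 and 386 CPM in dMCAO (1.29 ± 0.29, adjusted p = 0.126). The FPKM table put it at −0.12, above the median of that table. Pfkfb3, which makes the activator of phosphofructokinase, was at 268 and 185 CPM in sham and 705 and 483 CPM in dMCAO (1.39 ± 0.33, adjusted p = 0.139). Vldlr, a lipoprotein receptor, had no count in sham and 7.15 and 28.4 CPM in dMCAO, at least 46.6-fold higher. Slc2a1, the glucose transporter GLUT1, was at 43 and 41.7 CPM in sham and 81.5 and 80.9 CPM in dMCAO (0.94 ± 0.39), while the FPKM table put it lower, at −0.62.

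Of the glycolytic enzymes and transporters 13 of 21 were above 0 and 11 were higher without overlap. The median was 0.47, above that of all genes in 24 of 24 alternative settings, and 0.13 without dMCAO 2, but below 0 in the FPKM settings (lowest −0.51). Tpi1, triosephosphate isomerase, was at 35.1 and 41 CPM in sham and 143 and 138 CPM in dMCAO (1.88 ± 0.41, adjusted p = 0.126), with pairs that lay close together. Eno2, the enolase of neurons, was at 3.58 and 1.02 CPM in sham and 20 and 20.8 CPM in dMCAO (3.23 ± 1.31), while Eno1 had 168 counts over the sham libraries and 1 over the dMCAO libraries, 37.3-fold (95% interval 6.6 to 1481) lower. Eno1 has close copies in the genome among which counting can split reads, so its value is uncertain. In the FPKM table it was listed at 46.6 and 85.2 FPKM in sham and 39.7 and 34.8 FPKM in dMCAO, a difference of −0.75 on the log2(FPKM + 1) scale. The 30 nuclear-encoded subunits of the respiratory chain had a median of −0.19 (−0.39 without sham 1), with 12 of 30 above 0 and 11 lower without overlap. Ndufa4, a small subunit of that chain, had 128 counts over the sham libraries and 2 over the dMCAO libraries, 14.2-fold (95% interval 3.85 to 119) lower.

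Interferon-stimulated genes were higher in most cases. Of 30 members, 24 were above 0, 12 were higher without overlap and 1 lower, and 7 were called higher by DESeq2 but none by edgeR (smallest adjusted p = 0.115, for Lgals3bp). The median was 0.64, above that of all genes in 24 of 24 alternative settings, and 1.86 without sham 2, but below 0 in the FPKM settings (lowest −0.10). Oas1a, a sensor of double-stranded RNA, was at 1.43 and 10.2 CPM in sham and 122 and 65.6 CPM in dMCAO (3.89 ± 0.92, adjusted p = 0.139). Bst2, which tethers virus particles to the cell, was at 12.2 and 18.4 CPM in sham and 57.2 and 88.6 CPM in dMCAO (2.24 ± 0.60), and Ifi204, a DNA sensor, at 20.8 and 88.2 CPM in sham and 215 and 226 CPM in dMCAO (1.99 ± 0.61). In young mice 30 of 30 were above 0, with a median of 1.88.

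Genes of antigen presentation on MHC class II were lower, in large part through sham 2. Of 10 members 9 were below 0 and 4 were lower without overlap, edgeR called none and DESeq2 4, and the median of −2.4 lay below that of all genes in 24 of 24 alternative settings but was −0.63 without sham 2. H2-Ab1 was at 233 and 972 CPM in sham and 120.2 and 101 CPM in dMCAO (−2.45 ± 0.59, adjusted p = 0.14), and its partner chain H2-Aa at 68 and 621 CPM in sham and 8.58 and 73.3 CPM in dMCAO with overlap. H2-Eb1 was at 165 and 619 CPM in sham and 37.2 and 68.9 CPM in dMCAO (−2.88 ± 0.63, adjusted p = 0.126). Ciita, the transactivator of the class II genes, was at 37.2 and 209 CPM in sham and 4.29 and 17.5 CPM in dMCAO (−3.47 ± 0.98, adjusted p = 0.153). Cd74, the invariant chain, was at 299 and 2527 CPM in sham and 94.4 and 463 CPM in dMCAO. In all 5 genes sham 2 was the highest library. Class I genes overlapped for the most part: H2-D1 was at 93.1 and 171 CPM in sham and 97.3 and 102 CPM in dMCAO and H2-K1 at 357 and 827 CPM in sham and 539 and 902 CPM in dMCAO, and H2-T23 alone was lower without overlap, at 72.3 and 147 CPM in sham and 62.9 and 59.1 CPM in dMCAO. The class I and class II genes are similar families among which reads can be shared.

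Inflammatory cytokines and their sensors lay on both sides. Of 20 tested, 11 were above 0, 6 were higher and 4 lower without overlap, with a median of 0.09 (0.63 without sham 2, −0.11 without sham 1). Il1a, the alarm cytokine interleukin-1 alpha, was at 139.6 and 96.9 CPM in sham and 822 and 336 CPM in dMCAO (2.3 ± 0.53, adjusted p = 0.133), and Tnf at 102 and 70.5 CPM in sham and 159 and 167 CPM in dMCAO (0.92 ± 0.44), though the FPKM table put Tnf lower, at −0.56. Il1b overlapped, at 85.9 and 379 CPM in sham and 323 and 265 CPM in dMCAO. Il18, a cytokine activated by caspase-1, had 167 counts over the sham libraries and 1 over the dMCAO libraries, 37.1-fold (95% interval 6.56 to 1472) lower, and Casp1 itself had 204 counts over the sham libraries and 3 over the dMCAO libraries, 15.1-fold (95% interval 5.09 to 73.8) lower. Ptgs2, the inducible cyclooxygenase, had no count in dMCAO and 3.58 and 75.7 CPM in sham, at least 33.3-fold lower than in sham. Itgb2, the beta chain of the integrin that makes complement receptor 3 with CD11b, was at 903 and 1102 CPM in sham and 423 and 548 CPM in dMCAO (−1.05 ± 0.28, adjusted p = 0.146).

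Genes of cholesterol synthesis were mostly lower. Of 19 enzymes and regulators 15 were below 0, 9 were lower without overlap, against 23.8% of all genes, and none was higher without overlap or called by edgeR. DESeq2 called 4 lower. The median was −1.44, below that of all genes in 24 of 24 alternative settings, and −0.97 without sham 2 and −2.75 without dMCAO 2. The summed level was 412 and 551 CPM in sham and 179 and 410 CPM in dMCAO, so dMCAO 2 lay close to sham 1. Of the 19, 9 were at 0 in dMCAO 1 and 5 in dMCAO 2. Srebf1, a transcription factor of lipid synthesis, was at 59.4 and 58.9 CPM in sham and 11.4 and 18.6 CPM in dMCAO (−1.96 ± 0.53, adjusted p = 0.148). Of the enzymes, 3 had no count in either dMCAO library: Sc5d (13.6 and 25.9 CPM in sham, at least 12.6-fold higher there, though the FPKM table lists it at 19.6 and 7.72 FPKM in sham and 3.59 and 6.22 FPKM in dMCAO), Lss (14.3 and 11.7 CPM, at least 6.58-fold) and Mvd (17.2 and 9.7 CPM, at least 5.99-fold). Sqle, the squalene epoxidase, had none either and was at 1.43 and 8.85 CPM in sham. These members were low in sham as well, close to what the depth of dMCAO can show: 3 counts correspond to 4.29 CPM in dMCAO 1 and 3.28 CPM in dMCAO 2.

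Of 24 enzymes of ceramide and sphingomyelin metabolism, 7 were above 0, and 3 were higher and 7 lower without overlap, with a median of −0.43 (0.03 without sham 2, −1.24 without dMCAO 1). Beside Sgms1, Smpd4, a sphingomyelinase, was at 41.5 and 31.7 CPM in sham and 0 and 6.56 CPM in dMCAO (−3.37 ± 1.05, adjusted p = 0.174), and Ormdl2, a brake on ceramide synthesis, had 151 counts over the sham libraries and 3 over the dMCAO libraries, 11.2-fold (95% interval 3.75 to 54.8) lower. Smpd1, the lysosomal acid sphingomyelinase, was higher, at 15 and 19.1 CPM in sham and 41.5 and 63.4 CPM in dMCAO (1.61 ± 0.57). Among the 6 bridge-like lipid transfer proteins 5 were below 0 and 4 were lower without overlap, with a median of −1.27, below that of all genes in 24 of 24 alternative settings. The list includes Vps13b, one of the 12 lower genes given above, so that gene is counted again here. Vps13b, Vps13c, Vps13d and Atg2b are long, with 21.3, 16.3, 24.8 and 13.5 kb of exon, against a median of 4.53 kb over tested genes. Whether length had a part in their values was not tested. Vps13d was at 210.5 and 394 CPM in sham and 102 and 103 CPM in dMCAO (−1.57 ± 0.34, adjusted p = 0.126), and the autophagy member Atg2b at 68.7 and 81.5 CPM in sham and 34.3 and 21.9 CPM in dMCAO (−1.43 ± 0.43). Npc1, which exports cholesterol from lysosomes, was at 120.3 and 91.1 CPM in sham and 18.6 and 37.2 CPM in dMCAO (−1.9 ± 0.40, adjusted p = 0.126). The 30 lysosomal genes as a list had a median of 0.20, with 8 higher and 5 lower without overlap. That median had no stable side, at 0.02 without sham 2, −0.09 without dMCAO 2 and −0.84 at its lowest in the FPKM settings.

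Heat shock genes stood higher more often than genes at large. Of 21 heat shock genes, 12 were above 0, 9 were higher without overlap and 1 lower, with a median of 0.46 in aged and −0.50 in young mice. That aged median lay above the median of all genes in 23 of 24 alternative settings and was below 0 in the FPKM settings (lowest −0.67). Hspa1a and Hspa1b encode the same inducible HSP70 chaperone from neighbouring, nearly identical genes on chromosome 17, so reads can be split between them and their values are not independent. Hspa1a was at 213 and 197 CPM in sham and 668 and 483 CPM in dMCAO (1.49 ± 0.33, adjusted p = 0.126). Hspa1b was at 168 and 254 CPM in sham and 698 and 637 CPM in dMCAO (1.66 ± 0.34, adjusted p = 0.126). In young mice the order was the opposite, with Hspa1a at 1149 and 1756 CPM in sham and 427 and 526 CPM in dMCAO. Hspa1b was at 1399.8 and 2230.3 CPM in young sham and 568 and 595 CPM in young dMCAO. The difference between the ages was 3.1 ± 0.46 for Hspa1a and 3.3 ± 0.48 for Hspa1b, each with an adjusted p of 0.154, so it was not called. Hspb1, a small heat shock protein, was at 5.01 and 4.6 CPM in sham and 15.7 and 24.1 CPM in dMCAO (2.06 ± 0.70). Bag3, a co-chaperone, was high mainly in dMCAO 1 (46.5 and 47 CPM in sham, 286 and 50.3 CPM in dMCAO).

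As the 2 HSP70 genes had like values at both ages, the 250 bases before their RefSeq starts (GRCm38.p6, − strand, chr17:34972157-34972406 for Hspa1a and chr17:34959239-34959488 for Hspa1b) are shown, with the core GAANNTTC of a heat shock element in capitals:

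Hspa1a: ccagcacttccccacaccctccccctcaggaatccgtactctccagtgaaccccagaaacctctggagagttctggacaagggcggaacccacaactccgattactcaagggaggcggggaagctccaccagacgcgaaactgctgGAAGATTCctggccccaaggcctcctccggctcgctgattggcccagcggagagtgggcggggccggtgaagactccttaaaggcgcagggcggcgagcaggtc

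Hspa1b: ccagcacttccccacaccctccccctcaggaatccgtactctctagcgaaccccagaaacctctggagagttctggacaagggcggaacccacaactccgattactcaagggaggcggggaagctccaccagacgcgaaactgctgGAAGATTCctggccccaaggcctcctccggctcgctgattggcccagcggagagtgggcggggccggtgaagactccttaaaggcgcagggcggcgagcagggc

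The windows are identical at 247 of 250 positions (98.8%), and in both the core stands 104 bases and a CCAAT box 67 bases before the start. The core is found on either strand in 6.69% of the 32851 windows of that length and in 6 of the 16 listed heat shock genes with a window.

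Immediate early genes, which also answer to the dissociation of tissue, had 21 of 22 members above 0 and 11 higher without overlap, with a median of 0.71 in aged and 1.04 in young mice. The aged median lay above that of all genes in 24 of 24 alternative settings. It was 0.46 without dMCAO 1 and below 0 in the FPKM settings (lowest −0.27). Atf3, a stress-induced transcription factor, was at 765 and 524 CPM in sham and 2796 and 1144 CPM in dMCAO (1.61 ± 0.50, adjusted p = 0.175).

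Markers of cells other than microglia differed between the aged groups and between the libraries of a group. Their part in the results above was not tested. Of 8 tested markers of choroid plexus and ependyma 7 were above 0 and 6 higher without overlap, and the summed level of the 12 listed was 899 and 375 CPM in sham and 5383 and 3662 CPM in dMCAO. Ttr, the thyroxine carrier transthyretin, was at 643 and 244 CPM in sham and 3964 and 3071 CPM in dMCAO (2.99 ± 0.78, adjusted p = 0.143). Enpp2, autotaxin, was at 197 and 111 CPM in sham and 1270.2 and 386 CPM in dMCAO (2.43 ± 0.62, adjusted p = 0.143). Oligodendrocyte markers summed to 406 and 165 CPM in sham and 983 and 638 CPM in dMCAO. Of the 11 listed, 4 had no count in any aged library. Of the 6 tested, 4 were higher and 1 was lower without overlap. Mbp, a protein of compact myelin, was among the higher, at 140.3 and 128 CPM in sham and 243 and 163 CPM in dMCAO. Whether Igfbp5, Apod, Cxcl12, Pcp4 and Fbxl16 come from cells other than microglia was not tested. Neuron markers summed to 9.31 and 12.8 CPM in sham and 109 and 26.3 CPM in dMCAO. Of the 10 neuron markers in the count table, 7 were at 0 in each dMCAO library. T and NK cell markers summed to 0.716 and 107 CPM in sham and 0 and 7.66 CPM in dMCAO, and B cell markers to 43 and 249 CPM in sham and 44.3 and 112 CPM in dMCAO. Astrocyte markers (189 and 47.8 CPM in sham, 164 and 235 CPM in dMCAO), endothelial and mural markers (79.5 and 114 CPM, 41.5 and 209 CPM) and dendritic cell markers (1768 and 820.1 CPM, 1266 and 1135 CPM) overlapped. The dendritic cell list shares Siglech with the homeostatic list, so its sum does not stand for dendritic cells alone. Only 2 of the 6 listed erythroid markers were in the count table, and none passed the filter. In the FPKM table the haemoglobin gene Hba-a1 was at 62.7 and 45.3 FPKM in aged sham and 0 and 12.5 FPKM in aged dMCAO. Hbb-b1 was at 19.9 and 31.9 FPKM in aged sham and 0 and 3.76 FPKM in aged dMCAO.

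Markers of other myeloid cells were mostly lower. Markers of border-associated macrophages had 9 of 10 members below 0 and 6 lower without overlap, with a median of −2.8 (−2.29 with members at 0 set to their bound, −5.9 without dMCAO 2) and a summed level of 1678 and 1059.8 CPM in sham and 276 and 366 CPM in dMCAO. Of the 11 listed, 7 were at 0 in dMCAO 1 and 4 in dMCAO 2. Mrc1, the mannose receptor CD206, was at 330.0 and 67.6 CPM in sham and 21.5 and 12 CPM in dMCAO (−3.58 ± 0.76, adjusted p = 0.126), and F13a1, a clotting factor subunit, at 311 and 613 CPM in sham and 60.1 and 63.4 CPM in dMCAO (−2.9 ± 0.63). Neutrophil markers had 9 of 10 lower without overlap and a summed level of 2096 and 1739 CPM in sham and 721 and 871 CPM in dMCAO. The remaining member, Csf3r, overlapped, at 540 and 385 CPM in sham and 614 and 516 CPM in dMCAO. It made up most of the sum in both dMCAO libraries. S100a9 was at 349 and 298 CPM in sham and 8.58 and 25.2 CPM in dMCAO (−4.22 ± 0.76, adjusted p = 0.113) and its partner S100a8 at 189 and 101 CPM in sham and 7.15 and 20.8 CPM in dMCAO (−3.33 ± 0.87). Monocyte markers were lower without overlap in 7 of 13 and higher in 1. Their median of −3.22 became −1.54 without sham 2 and −5.37 without dMCAO 2. Of the 13, 5 were at 0 in dMCAO 1 and 4 in dMCAO 2. However, their summed level of 793 and 6372 CPM in sham and 1878 and 1873 CPM in dMCAO overlapped. The monocyte list shares Nr4a1 with the immediate early list, so its sum does not stand for monocytes alone. Ly6c2, the marker of classical monocytes, had no count in dMCAO and 10 and 113 CPM in sham, at least 50-fold lower than in sham. Vcan, versican, had 657 counts over the sham libraries and 1 over the dMCAO libraries, 146-fold (95% interval 26.1 to 5766) lower. Sham 2 thus had the highest sums of monocyte, T and NK cell and B cell markers, together with the highest Ccr2, Cxcr4, Itga4, Cd44 and MHC class II levels given above. Malat1, a nuclear RNA, was at 14205 and 15814 CPM in sham and 3650.4 and 6639 CPM in dMCAO (−1.54 ± 0.41, adjusted p = 0.148).

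**Figure D4:**
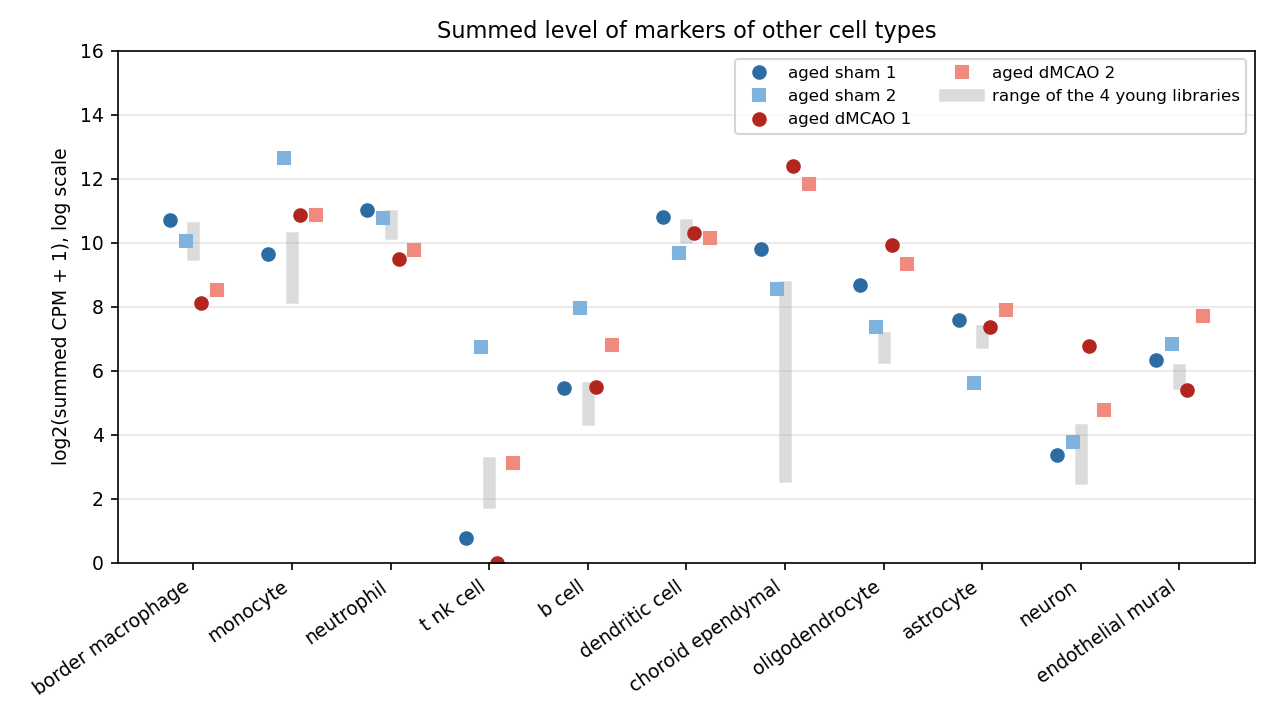
Summed level of the listed markers of 11 other cell types in each aged library (y axis, log2 of summed CPM + 1; blue, sham; red, dMCAO; circles, replicate 1; squares, replicate 2), with the range of the 4 young libraries as grey bars. Choroid and oligodendrocyte markers are higher and border macrophage and neutrophil markers lower in both dMCAO libraries, and sham 2 has the highest monocyte, T and NK cell and B cell sums.

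A direct test of whether stroke acted differently at the 2 ages called no gene with edgeR (0% of the tested genes, smallest adjusted p = 0.154), with 1242 at an unadjusted p under 0.05. DESeq2 called 95 genes with a more positive and 205 with a more negative change in aged mice. The 6 genes with the smallest p-values were Enpp2, Ralgapa1, Btaf1, Hspa1b, Ttr and Hspa1a. Enpp2 was at 41.7 and 97.5 CPM in young sham and 2.85 and 1.86 CPM in young dMCAO, the opposite order to aged mice, and the difference was 7.31 ± 0.97 (adjusted p = 0.154). Ttr was at 69.8 and 265 CPM in young sham and 7.66 and 1.68 CPM in young dMCAO, and the difference was 8.17 ± 1.19 (adjusted p = 0.154). The young log2 fold changes, −4.88 ± 0.74 for Enpp2 and −5.18 ± 0.90 for Ttr, were larger in size than the aged ones. Counted without a test, 373 of the 11955 tested genes were higher without overlap at both ages and 586 lower at both. Another 279 were higher in aged and lower in young mice, and 516 lower in aged and higher in young mice. How many genes would fall in these sets if the changes at the 2 ages were unrelated was not worked out. The counts therefore do not show a difference between the ages.

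**Figure D5:**
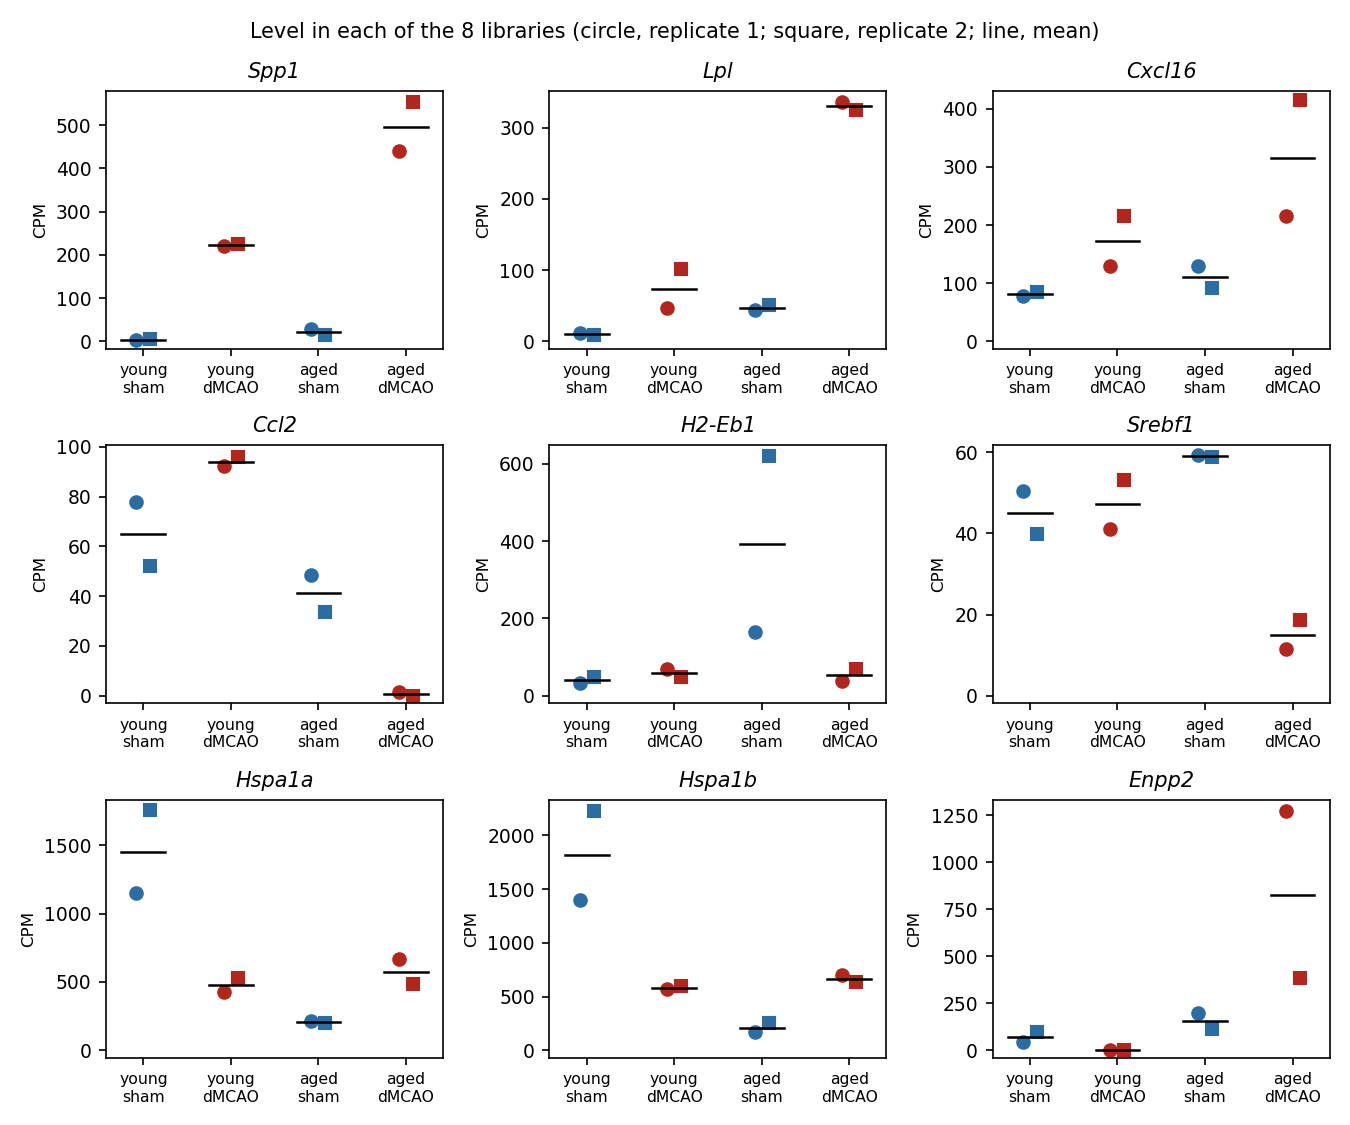
Level (y axis, CPM) of 9 genes in each of the 8 libraries, by group on the x axis; circles are replicate 1, squares replicate 2, and the line is the mean of the 2. Spp1, Lpl and Cxcl16 are higher after dMCAO at both ages, Ccl2 and Srebf1 lie lower in aged dMCAO than in the other 3 groups, H2-Eb1 is highest in the aged sham libraries, and Hspa1a, Hspa1b and Enpp2 lie on opposite sides at the 2 ages.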

How the data were processed

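Libraries of total RNA were built with a stranded SMARTer Pico kit for small inputs and read on an Illumina HiSeq instrument, per the labels' protocols. The authors deposited a table of raw counts per gene and a table of FPKM (fragments scaled to transcript length and library size) for all 8 libraries. TopHat2, Cufflinks 2.2.1, HTSeq 0.11.2 and the mm10 build are named per the submitters' processing notes; no source used here gives their order, the annotation or the strand setting, so overlapping and antisense genes cannot be told apart. Leading spaces were stripped from 24 symbols, and 23 symbols turned into dates by a spreadsheet were kept as they stand. Genes were kept by edgeR's filterByExpr (minimum count 10, minimum total 15), scaled by TMM and fitted with edgeR 4.0.16 (R 4.3.3) by quasi-likelihood over the 4 groups of 2 libraries, with contrasts for stroke in aged mice, in young mice and their difference, and Benjamini-Hochberg adjustment over the 11955 genes tested, at a threshold of 0.05. All 8 libraries share one estimate of the spread, so the young libraries make the aged tests less strict than the aged libraries alone would (biological coefficient of variation 0.570 over all, 0.751 in the aged and 0.198 in the young libraries). The test was tried first on simulated counts with the same spread in all libraries, near that of the young ones. That trial does not cover the larger spread of the aged libraries.

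The text names the 12 genes on each side with the smallest p-values among those of at least 10 CPM and without overlap between the groups, the leading members of each list, the 6 genes with the smallest p-values for the difference between the ages, and members with a fixed role; 111 of the 179 genes so named are printed, and some results are not reported here. The members, lists and tests were chosen with earlier results of these data known. A gene with no count in a group is given as a bound against 3 counts over that group, and one with 1 to 3 counts as a ratio with an exact binomial interval. Replicate numbers showed no pairing of the libraries: the differences between replicates 1 and 2 correlated between groups with r from −0.08 to 0.09. The N codes of the labels differ from these numbers in some groups, so the check does not cover a pairing by N code. Gene lengths are from GENCODE M21 and promoters from RefSeq. Alternatives were DESeq2 1.42.0, limma 3.58.1 (voom, with and without quality weights, and on log2(FPKM + 1) or log2(FPKM + 0.1) with and without a minimum mean of 1), other scalings and filters, counts thinned to the smallest library, blocks, the aged libraries alone and leaving out each library. The FPKM table served only for these alternatives and for symbols that the count table lacks.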

Additional observations from a re-analysis of the deposited data

Results flagged for a closer look

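Of the symbols that appear in the FPKM table but not in the count table, 55 had a mean of at least 10 FPKM in the aged columns. In 5 of them both aged dMCAO columns lay above both sham columns, and in 23 they lay below. Hba-a1 and Hbb-b1, given above, are among those that lay below. None of these symbols entered the tests above, and with 2 columns a group the differences were not tested.

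Gm22291, Gm23284, Gm25018 and Gm25212, 4 predicted genes, carried identical values in every column, so they count as 1 signal: 713 and 232 FPKM in aged sham, 3603 and 3604 FPKM in aged dMCAO, and 146 to 766 FPKM in the young columns. How reads were assigned to the 4 symbols is not stated, so the value is uncertain. H2-Q7, a non-classical MHC class I gene, stood at 11 and 0 FPKM in aged sham and 127 and 13.9 FPKM in aged dMCAO, with the column named dMCAO 1 far above the other 3. The gene belongs to a family of close copies, so its value is uncertain as well. The 2 dMCAO columns are named here as in the FPKM table.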

How the results depend on the processing

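The counts of calls, 1 higher and 3 lower, held within 1.5 times with other scalings in edgeR, a minimum mean of 5 CPM and without Rn45s. They were 356 and 694 with DESeq2 (1159 genes had no adjusted p there), 213 and 459 without a filter, and 2 and 114 on log2(FPKM + 0.1). On log2(FPKM + 1), with or without a filter or the young sham 1 column, which matched no library well (an alternative chosen after seeing the data), and with the 4 aged libraries alone, both were 0. Lower calls were 0 with limma-voom, with quality weights and with counts thinned to the smallest library. A replicate block by number gave 0 and 0, and a replicate block by the N code of the labels 57 and 111; the numbers share no source that the labels name. Leaving out each library gave 0 to 76 higher and 0 to 346 lower. The difference between the ages, 0 and 0, became 95 and 205 with DESeq2, 60 and 150 without a filter, 5 and 20 with the block by N code, 5 and 4 on log2(FPKM + 1), 1 and 4 on log2(FPKM + 0.1), 0 and 2 on log2(FPKM + 1) without a filter and 48 and 10 without the young sham 1 column, and 0 to 2 and 0 with a library left out. The cause of these shifts was not tested.

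Over all pairs of a printed gene and an alternative, 82 changed direction, none of them for a called gene, and 2254 kept direction and side of the threshold. In the FPKM table, whose median is −0.92, log2 fold changes were below 0 for Fabp5 (−0.67, −0.66 with the pseudocount 0.1), Clec7a (−0.43, −0.43), Itgax (−0.97, −1.09), Trem2 (−0.35, −0.35), Sall1 (−0.36, −0.37), Ccl12 (−0.54, −0.56), Vegfa (−0.80, −0.96), Pdgfb (−0.65, −0.68), Hif1a (−0.12, −0.12), Slc2a1 (−0.62, −0.67), H2-K1 (−0.47, −0.47), Il1b (−0.32, −0.32) and Tnf (−0.56, −0.58), and H2-D1 was above 0, at 2.18 and 2.18. Tmem119 turned to 0.0405 with RLE factors or DESeq2 (both to this rounding), 0.0116 with upper-quartile factors, 0.26 and 0.35 with limma-voom without and with weights, 0.0271 thinned and 0.0048 in the aged libraries alone, and P2ry12 to 0.00537 with RLE factors and 0.00535 with DESeq2. With a library left out, the log2 fold change ran from −1.16 to 1.33 for Itgax, from −0.35 to 1.57 for Trem2, from −2.17 to 0.60 for Lgals3, from −0.53 to 0.26 for P2ry12, from −0.52 to 0.75 for Tmem119, from −0.0311 to 1.2 for Sall1, from −1.97 to 0.50 for Itgb3, from −13.71 to 0.58 for Itga4 (the lowest fitted against a library with no count), from −7.64 to 0.14 for Cd44, from −0.96 to 1.44 for Vegfa, from −0.78 to 0.13 for H2-D1, from −0.20 to 1.05 for H2-K1 and from −0.37 to 1.81 for Il1b. Depth limits what can be seen in dMCAO, since a gene under 3 counts there lies under 4.29 or 3.28 CPM.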

Other observations

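Gene lists around the genes called lower had medians near that of all genes, −0.29. Beside Ralgapa1, the 11 tested genes of the Ral pathway had 4 members above 0 and a median of −0.22 (−0.09 without sham 1, −0.68 without dMCAO 2), and Exoc8, a subunit of the exocyst through which Ral acts, was at 59.4 and 25.7 CPM in sham and 20 and 12 CPM in dMCAO (−1.4 ± 0.65, adjusted p = 0.292). Beside Btaf1, the 19 genes of the TATA-binding protein and general initiation machinery had 8 above 0, 4 lower without overlap and a median of −0.08, which was 0.19 without sham 2, 0.02 without dMCAO 1 and −0.52 without dMCAO 2. Gtf2a2, a subunit of TFIIA, had no count in dMCAO and 9.31 and 42.9 CPM in sham, at least 19.6-fold lower than in sham. Complement genes had a median of −0.38, with 1 of 12 lower without overlap, and the median was 0.26 without sham 1 and −0.11 without dMCAO 1.

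Genes tied to cell senescence had 7 of 11 members above 0, 6 higher and 2 lower without overlap and a median of 0.39, against −0.06 in young mice. The aged median was 0.90 without sham 2, 0.20 without dMCAO 1 and −0.79 at its lowest in the FPKM settings. Igfbp7, a secreted binder of growth factors, had no count in sham and 22.9 and 32.8 CPM in dMCAO, at least 69.1-fold higher. Whether Igfbp7 comes from microglia or from other cells was not tested. Lmnb1, a lamin that is lost in senescent cells, was at 98.1 and 214 CPM in sham and 14.3 and 47 CPM in dMCAO (−2.33 ± 0.75, adjusted p = 0.186). EdgeR called none of the 11, and DESeq2 called 2 higher, Igfbp7 among them. Genes of lipid uptake and export had a median of 0.04, with 11 of 22 above 0, and the median ran from −0.69 without dMCAO 2 to 0.37 without sham 2.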
